A study of Saccharomyces cerevisiae with 8 samples.

Results

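The small nuclear and nucleolar RNAs of Saccharomyces cerevisiae were followed through 8 RNA sequencing libraries. They were taken by name from the deposited count table, as every gene whose name starts with snR together with LSR1, NME1, RPR1, SCR1 and TLC1. Of 86 such genes, 83 held at least 10 counts over the 8 libraries and were kept, out of 7126 genes in the table. The kept RNAs were 4 spliceosomal small nuclear RNAs (snRNAs), 2 genes of the U3 small nucleolar RNA (snoRNA), 44 box C/D snoRNAs, 29 box H/ACA snoRNAs and 4 RNAs of other ribonucleoproteins. U3 is itself a box C/D snoRNA, but it is counted apart, and counts of box C/D snoRNAs below leave it out. Just outside the minimum, snR7-L and snR73 held 5 counts each and snR7-S held 0. Just inside it, snR53 held 20 counts, snR74 held 21, snR60 held 28 and snR79 held 33.

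The libraries form 4 groups of 2, all of the BY4741 background, a laboratory haploid strain, harvested in mid-exponential growth in SC-Ura medium. HP mutation and nHP mutation are libraries of a mutation strain whose phenotype is given as improved tolerance of oxidation stress. HP control and nHP control are libraries of the control strain. Which gene carries the mutation was not given in the sources used here. The titles name HP and nHP for each strain, and the series describes growth of both strains with or without H2O2, but the medium entry of the samples gives H2O2 for every control library and none for every mutation library. HP and nHP are therefore used as titles only. Should that entry be correct, peroxide and strain cannot be told apart in any comparison between strains. No label says that replicates came from separate cultures, so the p-values may cover only technical spread.

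Spliceosomal snRNAs pair with the ends and branch site of introns and with each other, and form the catalytic core that removes introns. Box C/D snoRNAs guide methylation of ribose and box H/ACA snoRNAs guide conversion of uridine to pseudouridine in ribosomal RNA, while U3, snR30, snR10 and snR128 act in cleavage of the ribosomal RNA precursor. SCR1 is the RNA of the signal recognition particle, which brings ribosomes to the endoplasmic reticulum, RPR1 the RNA of RNase P, which trims transfer RNA precursors, NME1 the RNA of RNase MRP, and TLC1 the template RNA of telomerase. SCR1, RPR1, snR6 and snR52 are made by RNA polymerase III and the others mainly by RNA polymerase II. Most of these RNAs carry no poly(A) tail when mature, and whether RNA with such tails was selected for the libraries was not given in the sources used here.

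The sequences of 6 RNAs that the results turn on are shown from the RefSeq R64 genome, written as DNA from 5′ to 3′. All 83 RNAs had a gene of the same name in that assembly. The first pair are U4 (snR14) and U6 (snR6), which pair with each other before the spliceosome is activated, with the longest stretch of perfect complementarity, 11 bases, in capitals.
snR14: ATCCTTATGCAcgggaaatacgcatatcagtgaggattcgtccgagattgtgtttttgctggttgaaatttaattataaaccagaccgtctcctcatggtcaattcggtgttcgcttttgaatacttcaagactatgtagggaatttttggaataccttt
snR6: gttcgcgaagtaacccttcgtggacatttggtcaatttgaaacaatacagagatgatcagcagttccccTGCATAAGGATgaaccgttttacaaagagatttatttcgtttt
The box C/D snoRNA snR64 guides methylation of C2337 of the large subunit rRNA, per the reference annotation, and the letters of its box C (TGATGA) and box D (CTGA) are in capitals.
snR64: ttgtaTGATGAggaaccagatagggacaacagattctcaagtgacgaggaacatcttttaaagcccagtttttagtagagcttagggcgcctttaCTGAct
The box H/ACA snoRNAs snR11, which guides pseudouridylation of U2416 of the large subunit rRNA, and snR35, which guides it in the small subunit rRNA, have the ACA that lies 3 bases before their 3′ ends in capitals.
snR11: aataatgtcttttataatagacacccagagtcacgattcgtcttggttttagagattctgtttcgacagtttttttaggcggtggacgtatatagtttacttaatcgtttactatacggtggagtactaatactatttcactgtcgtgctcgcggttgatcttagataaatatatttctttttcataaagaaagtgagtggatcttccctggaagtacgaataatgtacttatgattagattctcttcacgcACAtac
snR35: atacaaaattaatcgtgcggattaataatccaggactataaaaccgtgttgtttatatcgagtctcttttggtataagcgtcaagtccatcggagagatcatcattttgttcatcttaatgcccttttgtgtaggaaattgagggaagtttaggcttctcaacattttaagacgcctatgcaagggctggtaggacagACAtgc
The last 150 bases of SCR1 end in a run of T, in capitals, the kind of letters at which RNA polymerase III stops.
SCR1: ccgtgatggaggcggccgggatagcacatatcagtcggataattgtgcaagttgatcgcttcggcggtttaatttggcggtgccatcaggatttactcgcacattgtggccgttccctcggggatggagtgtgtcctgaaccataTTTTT

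The letters of their classes were found in many of the sequences, though not in all. TGATGA in the first 25 bases together with CTGA in the last 25 bases, read on the RNA's own strand, was found in 35 of 44 box C/D snoRNAs, in 0 of 29 box H/ACA snoRNAs and in 42.2% of all 83 RNAs. ACA exactly 3 bases before the 3′ end was found in 14 of 29 box H/ACA snoRNAs, in 1 of 44 box C/D snoRNAs and in 20.5% of all 83. It was also found in 2 of 2 U3 genes, which are not of the H/ACA class. The letters ATTTTTG, which lie in the binding site of the Sm protein ring, were found anywhere in 3 of 4 snRNAs, among them snR14, and in 8.4% of all 83. These are matches of letters at the ends annotated in the reference and were not tested as binding sites.

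Levels as read in these libraries were low and differed widely among the RNAs. Together they took 0.0656% and 0.0755% of the counts in the HP mutation libraries, against 0.0906% and 0.0917% in the HP control libraries. Their share was 0.0729% and 0.0658% in the nHP mutation libraries, against 0.0836% and 0.0785% in the nHP control libraries. Within each title, both mutation libraries lay below both control libraries, and no 95% Wilson interval of a mutation library reached one of a control library of its title. Those intervals ran from 0.0641% to 0.0773% in HP mutation and from 0.0886% to 0.0935% in HP control libraries, and cover counting error only. Library totals ran from 8296523 to 11202362 counts, and a count of 0 allows a level of up to 0.268 CPM in the deepest library and 0.362 CPM in the shallowest (CPM is the count scaled to the library total).

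On the deposited RPKM scale, which divides by gene length, the median of the RNAs' mean level over the 8 libraries was 23.3, against 62.3 for protein-coding genes, and 11 of 83 lay above that second value. Whether the libraries recovered these RNAs as fully as protein-coding transcripts was not tested, so these values do not rank their abundance in the cell. The highest mean level was that of snR11, 165 RPKM with a range over libraries of 118 to 228. SCR1 came next with 161 RPKM, over a range of 96.3 to 249. The H/ACA snoRNAs snR33, a guide for U1042, and snR9, a guide for U2340 and U2345 of the large subunit rRNA, had mean levels of 119 and 118 RPKM. The ranges of these 4 RNAs over libraries overlap, and snR33 (75.3 to 151 RPKM) and snR9 (78.6 to 154 RPKM) do not differ beyond their spread. The box C/D snoRNA snR62, a guide for U1888, had a mean of 91.0 RPKM and the H/ACA snoRNA snR44, a guide for U1056, had 86.7 RPKM. The lowest mean levels were those of the box C/D snoRNAs snR53 with 2.94, snR74 with 3.22 and snR60 with 3.63 RPKM.

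The median level of box C/D snoRNAs was 19.7 RPKM and that of box H/ACA snoRNAs 42.1 RPKM. Box C/D snoRNAs are also the shorter class, with a median length of 96.5 bases against 204 bases for H/ACA. Across all 83 RNAs the rank correlation of length with mean RPKM was 0.47, but within box C/D snoRNAs it was 0.20 and within box H/ACA snoRNAs 0.23. This is a description across genes that share the same 8 libraries, and loss of short fragments during library preparation was not tested. The 17 RNAs that lie next to a snoRNA gene on the same strand had a median of 14.2 RPKM, the 8 that lie in introns 21.3 RPKM and the other 58 had 26.3 RPKM. Within the box C/D class alone the medians were 14.1 RPKM for 16 RNAs next to another snoRNA gene, 21.3 RPKM for 6 in introns and 19.7 RPKM for the other 22.

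**Figure D1:**
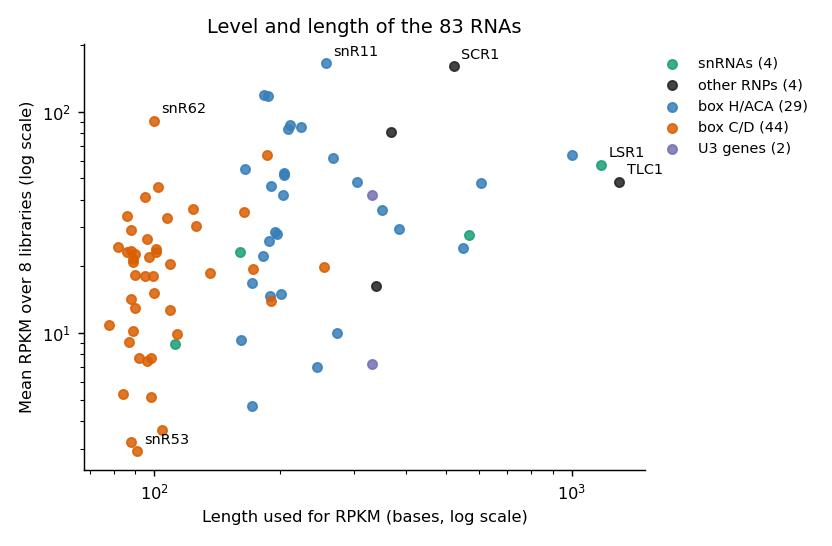
Mean RPKM over the 8 libraries (log scale) against the length used for RPKM (bases, log scale) for the 83 RNAs, 1 point per RNA, coloured by class. Box C/D snoRNAs fill the short, low side with a median of 19.7 RPKM, and snR11 (165 RPKM) and SCR1 (161 RPKM) stand highest.

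Counts per RNA were small for most of the set. The median of the RNAs' mean counts was 27.0 per library, 30 of 83 averaged under 20 counts and 21 averaged at least 100. After edgeR's standard filter on low counts, 72 RNAs entered the test among 6174 genes. The 10 box C/D snoRNAs snR52, snR53, snR55, snR58, snR59, snR60, snR72, snR74, snR75 and snR79 and the H/ACA snoRNA snR80 did not, and have levels only. An RNA is called where edgeR's quasi-likelihood test gave a p under 0.05 after Benjamini-Hochberg adjustment over the 6174 genes. Levels in single libraries are given as CPM after TMM scaling, which are levels relative to each library's total and do not tell less RNA per cell from more of other RNAs.

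In the mutation strain, the RNAs of the signal recognition particle, RNase P and the U4 snRNA were read at lower levels than in the control strain under both titles. Whether recovery of RNAs without a poly(A) tail differed between libraries was not tested. No box C/D snoRNA outside U3 was called in either strain comparison, and the U3 gene snR17a was lower under nHP. Under HP, 6 RNAs fell (LSR1, RPR1, SCR1, snR14, snR3 and snR86) and 1 rose (snR11) of 72 tested, 9.72%, against 28.7% of all genes tested. Under nHP, 5 RNAs fell (RPR1, SCR1, TLC1, snR14 and snR17a) and 0 rose, 6.94%, against 21.3% of all genes and 9.91% that fell. The 0 that rose under nHP became 3 with the nHP libraries alone or without either HP control library, 2 with the replicate block and 1 with RLE factors. Both shares lie below those of all genes, as they do within each of 2 count ranges, inside which RNAs and genes were not matched by count. Among RNAs averaging at least 100 counts, 5 of 21 were called under HP and 4 of 21 under nHP, against 30.7% and 22.9% of all genes of that count range. Libraries of the 2 strains did not overlap for 7 RNAs higher and 30 lower in the mutation strain under HP, against 30.5% and 36.7% of all genes. Under nHP they did not overlap for 18 RNAs higher and 17 lower, against 1853 and 2173 of 6174 genes. Below 100 counts, 2 of 51 were called under HP and 1 of 51 under nHP, against 14.2% and 10.3% of genes.

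SCR1, the RNA of the signal recognition particle, had 50.7 and 62.5 CPM in the HP mutation libraries, against 128 and 129 CPM in the HP control libraries. Its levels were 60.4 and 55.0 CPM in the nHP mutation libraries, against 78.9 and 104 CPM in the nHP control libraries. All 4 mutation libraries lay below all 4 control libraries, and the 4 mutation libraries overlapped each other across titles. SCR1 fell 2.27-fold under HP (log2 fold change −1.18 ± 0.13 SE, edgeR adjusted p = 0.000125, n = 2 against 2 libraries). Under nHP it fell 1.59-fold (log2 fold change −0.67 ± 0.14 SE, edgeR adjusted p = 0.00596). The nHP call was lost without nHP mutation replicate 2 (edgeR adjusted p = 0.0826) and without nHP control replicate 2 (edgeR adjusted p = 0.0587, log2 fold change −0.44).

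RPR1, the catalytic RNA of RNase P, had 21.0 and 21.2 CPM in the HP mutation libraries, against 43.8 and 42.7 CPM in the HP control libraries. In the nHP mutation libraries it had 20.3 and 24.1 CPM, against 32.0 and 31.9 CPM in the nHP control libraries. As for SCR1, every mutation library lay below every control library. RPR1 fell 2.05-fold under HP (log2 fold change −1.04 ± 0.12 SE, edgeR adjusted p = 0.000108) and 1.44-fold under nHP (−0.52 ± 0.12 SE, edgeR adjusted p = 0.0104). The nHP call was lost without nHP mutation replicate 1 (edgeR adjusted p = 0.0835, log2 fold change −0.39), nHP control replicate 1 (0.0781) or nHP control replicate 2 (0.0625).

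**Figure D2:**
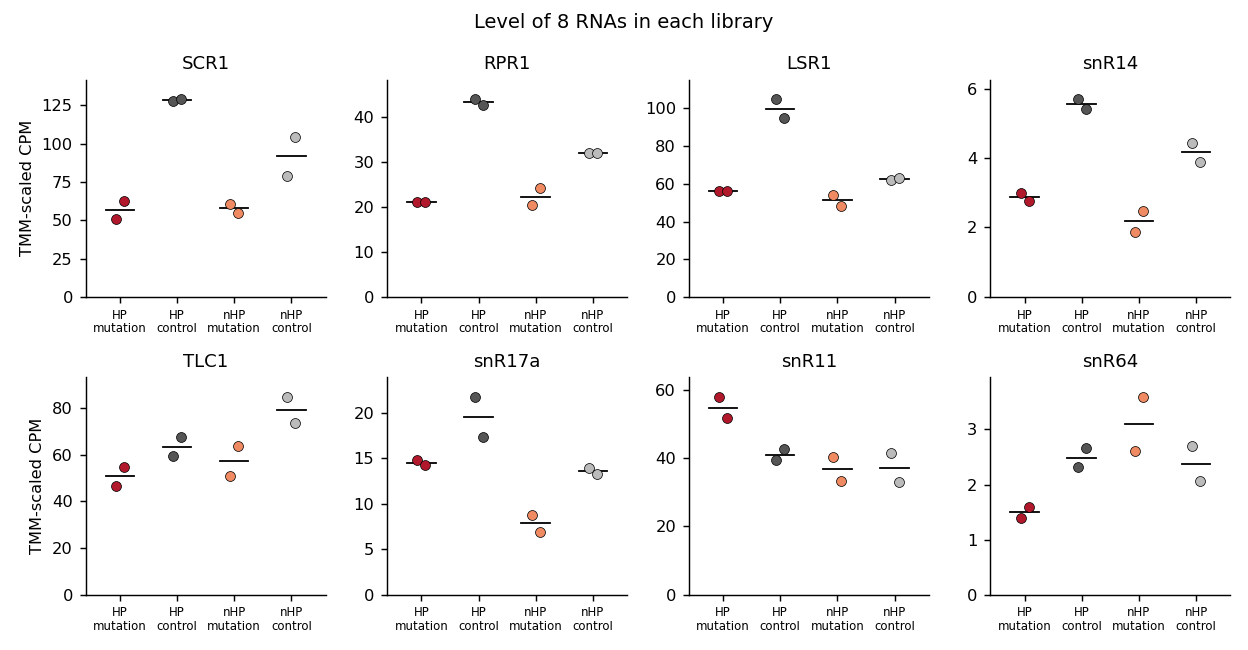
TMM-scaled CPM of 8 RNAs in each library (points), with the mean of each group of 2 (lines), from left to right HP mutation, HP control, nHP mutation and nHP control. SCR1 and RPR1 are lower in all 4 mutation libraries than in all 4 control libraries, LSR1 is highest in HP control and snR17a is lowest in nHP mutation.

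TLC1, the telomerase RNA, had 51.0 and 63.6 CPM in the nHP mutation libraries, against 84.7 and 73.5 CPM in the nHP control libraries. Under HP it had 46.4 and 55.0 CPM in the mutation libraries, against 59.4 and 67.5 CPM in the control libraries. The groups did not overlap within either title. TLC1 fell 1.38-fold under nHP (log2 fold change −0.47 ± 0.13 SE, edgeR adjusted p = 0.0261), while the HP difference was −0.33 ± 0.13 SE with an edgeR adjusted p of 0.0809. The nHP call was lost without nHP mutation replicate 1 (edgeR adjusted p = 0.207, log2 fold change −0.30) and without nHP control replicate 1 (edgeR adjusted p = 0.212). NME1, the RNA of RNase MRP, had 3.36 and 6.04 CPM in the HP mutation libraries, against 7.19 and 7.62 CPM in the HP control libraries, and was not called (log2 fold change −0.68 ± 0.25 SE, edgeR adjusted p = 0.0649). Its nHP difference was 0.26 ± 0.28 SE.

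Of the spliceosomal snRNAs, U2 and U4 fell under HP, and U4 fell under nHP. LSR1, the U2 snRNA that pairs with the intron branch site, had 56.1 and 56.2 CPM in the HP mutation libraries, against 105 and 95.1 CPM in the HP control libraries. Its levels under nHP were 54.3 and 48.2 CPM in mutation libraries, against 61.8 and 62.9 CPM in control libraries. The HP control libraries stood apart from the other 6. LSR1 fell 1.78-fold under HP (log2 fold change −0.83 ± 0.09 SE, edgeR adjusted p = 0.000108), and its nHP difference was −0.28 ± 0.10 SE with an edgeR adjusted p of 0.059.

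snR14, the U4 snRNA that keeps U6 inactive, had 2.98 and 2.75 CPM (32 and 26 counts) in the HP mutation libraries, against 5.68 and 5.40 CPM (49 and 61 counts) in the HP control libraries. Under nHP it had 1.87 and 2.47 CPM (15 and 20 counts) in mutation libraries, against 4.44 and 3.90 CPM (41 and 36 counts) in control libraries. All mutation libraries lay below all control libraries. The log2 fold change was −0.94 ± 0.23 SE under HP (edgeR adjusted p = 0.011) and −0.94 ± 0.27 SE under nHP (edgeR adjusted p = 0.0282). DESeq2 called neither, with adjusted p-values of 0.064 and 0.127. The HP call was lost without either HP mutation library (edgeR adjusted p = 0.0681 without replicate 1 and 0.0678 without replicate 2), and the nHP call without any 1 of the 4 nHP libraries (edgeR adjusted p from 0.0784 to 0.171).

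snR6, the U6 snRNA that pairs with snR14 through the stretch shown above, was read by only 9 and 8 counts in the HP mutation libraries, against 14 and 19 in the HP control libraries. Its log2 fold change under HP was −0.96 ± 0.38 SE with an edgeR adjusted p of 0.0758, and under nHP −0.02 ± 0.49 SE. snR19, the U1 snRNA that recognises the 5′ end of introns, had 10.6 and 15.2 CPM in the HP mutation libraries, against 20.8 and 15.1 CPM in the HP control libraries. Those groups overlapped, and the log2 fold change was −0.46 ± 0.20 SE (edgeR adjusted p = 0.0996). No U5 snRNA gene (snR7-L and snR7-S) reached the count minimum.

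Summed by class, with no test, the snRNAs, the other ribonucleoprotein RNAs and the 2 U3 genes were lower in the mutation libraries under both titles. The box H/ACA class and the box C/D class, which leaves out U3, overlapped between strains. Most snRNA counts were those of LSR1, such as 436 of 573 in nHP mutation replicate 1 and 1074 of 1324 in HP control replicate 2. The 4 snRNAs held 74.6 ± 3.96 CPM of the library totals in the HP mutation libraries, against 126 ± 11.4 in the HP control libraries (SD, n = 2 each), and 64.8 ± 6.09 in the nHP mutation libraries, against 86.9 ± 2.28 in the nHP control libraries. SCR1, RPR1, NME1 and TLC1 together held 136 ± 18.1 in HP mutation, against 245 ± 5.43 in HP control, and 134 ± 1.63 in nHP mutation, against 213 ± 6.47 in nHP control. Box H/ACA snoRNAs held 376 ± 36.9 in HP mutation, against 405 ± 5.02 in HP control, and 381 ± 32.6 in nHP mutation, against 382 ± 35.4 in nHP control. Box C/D snoRNAs held 101 ± 11.2 in HP mutation, against 114 ± 12.1 in HP control, and 104 ± 10.7 in nHP mutation, against 112 ± 3.30 in nHP control. The 2 U3 genes held 16.7 ± 0.35 in HP mutation, against 22.3 ± 3.28 in HP control. Under nHP they held 9.61 ± 2.09 in mutation libraries, against 16.9 ± 1.28 in control libraries. All 83 RNAs together held 706 ± 69.8 in HP mutation, against 912 ± 7.86 in HP control.

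Of the 2 U3 genes, snR17a had 8.72 and 6.93 CPM in the nHP mutation libraries, against 14.0 and 13.2 CPM in the nHP control libraries. Under HP it had 14.8 and 14.2 CPM in mutation libraries, against 21.7 and 17.3 CPM in control libraries. The nHP mutation libraries lay below all the others. It fell 1.73-fold under nHP (log2 fold change −0.79 ± 0.19 SE, edgeR adjusted p = 0.0119), and its HP difference was −0.42 ± 0.16 SE (edgeR adjusted p = 0.0716). The nHP call was lost without nHP mutation replicate 2 (edgeR adjusted p = 0.129) and without nHP control replicate 1 (edgeR adjusted p = 0.0866).

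The other U3 gene, snR17b, had 1.87 and 1.80 CPM in the HP mutation libraries, against 2.67 and 2.57 CPM in the HP control libraries, and was not called (log2 fold change −0.51 ± 0.30 SE, edgeR adjusted p = 0.211). Both U3 genes are 91.6% identical over 345 aligned bases of their unspliced sequence, so the split of reads between them is uncertain. snR17a also overlaps the open reading frame IRC13 on the same strand in the reference. In the same way snR10 overlaps YGL088W and snR60 overlaps YJL047C-A, and reads shared by such pairs cannot be told apart.

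Among the box H/ACA snoRNAs, 2 fell and 1 rose under HP, 10.7% of 28 tested, against 28.7% of all genes. None was called under nHP (6 of 28 had an unadjusted p under 0.05 under nHP), against 21.3% of all genes. snR86, a guide for U2314 of the large subunit rRNA, had 49.4 and 55.9 CPM in the HP mutation libraries, against 71.1 and 65.3 CPM in the HP control libraries. It fell 1.29-fold (log2 fold change −0.37 ± 0.10 SE, edgeR adjusted p = 0.0193), a call that was lost without HP mutation replicate 1 (edgeR adjusted p = 0.234, log2 fold change −0.26), without HP control replicate 1 (edgeR adjusted p = 0.0613), with the HP libraries alone (edgeR adjusted p = 0.0823) and by DESeq2 (adjusted p = 0.0537). snR3, a guide for U2129, U2133 and U2264, had 4.10 and 4.98 CPM in HP mutation libraries, against 6.84 and 6.64 CPM in HP control libraries. Its log2 fold change was −0.57 ± 0.20 SE at the threshold itself (edgeR adjusted p = 0.0499), and the call was lost under all 14 alternatives that gave a value, with adjusted p-values from 0.0503 under the replicate block to 0.306 without HP mutation replicate 1.

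snR11 was the RNA that rose in the mutation strain under HP. It had 57.8 and 51.7 CPM in the HP mutation libraries, against 39.3 and 42.6 CPM in the HP control libraries, and 40.4 and 33.3 CPM in the nHP mutation libraries, against 41.5 and 32.9 CPM in the nHP control libraries. The HP mutation libraries lay above all the others, and the nHP groups overlapped. It rose 1.34-fold under HP (log2 fold change 0.42 ± 0.13 SE, edgeR adjusted p = 0.0355) and the nHP difference was −0.02 ± 0.14 SE. The call was lost without HP mutation replicate 1 (edgeR adjusted p = 0.2003) or replicate 2 (edgeR adjusted p = 0.0748).

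The remaining RNAs with roles in cleavage of the ribosomal RNA precursor were not called between strains. snR30, which is essential for release of the 18S rRNA precursor, had 24.4 and 24.04 CPM in HP mutation libraries, against 32.4 and 27.99 CPM in HP control libraries (log2 fold change −0.31 ± 0.12 SE, edgeR adjusted p = 0.0651). Under nHP the sign was the other one, with 33.8 and 32.8 CPM in mutation libraries, against 27.3 and 27.9 CPM in control libraries (0.27 ± 0.12 SE, edgeR adjusted p = 0.123). snR128 (U14) had log2 fold changes of −0.30 ± 0.27 SE under HP and 0.33 ± 0.28 SE under nHP. snR10, read by 12 to 21 counts in a library, had 0.11 ± 0.35 SE under HP and 0.34 ± 0.37 SE under nHP.

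The box C/D snoRNAs other than U3 gave 0 calls of 34 in both strain comparisons by edgeR's quasi-likelihood test. At an unadjusted p under 0.05 there were 2 under HP and 0 under nHP. All of the 34 but snR4 averaged under 100 counts, a range in which 14.2% of all genes were called under HP and 10.3% under nHP. The median log2 fold change of the 34 was −0.24 under HP, with 29 of 34 below 0, against −0.21 for box H/ACA snoRNAs. Under nHP it was 0.02, with 16 of 34 below 0, against 0.09 for box H/ACA snoRNAs. Over all 72 RNAs tested, the median was −0.26 under HP, against −0.05 for all genes tested, and 0.03 under nHP, against −0.02 for all genes. The HP median of these RNAs was −0.17 or −0.41 when replicate 1 or replicate 2 of HP mutation was left out, in that order, and −0.13 when replicate 2 of HP control was. With no composition scaling the nHP medians were −0.10 for these RNAs and −0.15 for all genes. The 19 RNAs whose HP mutation replicates lay over 1.5-fold apart, against 9 to 12 in the other groups, limit the HP values, and the median log2 ratio of HP mutation replicate 1 over 2 was −0.25 for these RNAs and 0.00 for all genes.

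**Figure D3:**
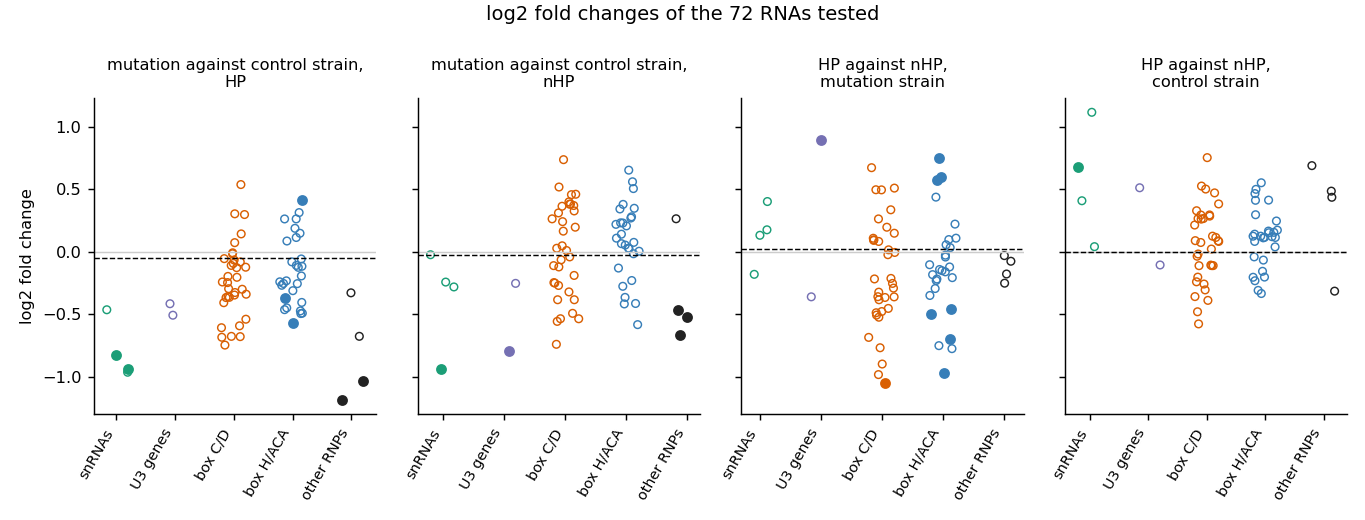
log2 fold changes of the 72 RNAs tested, 1 point per RNA by class, in 4 panels (mutation against control strain under HP and under nHP, then HP against nHP in the mutation and in the control strain), with called RNAs filled, others open, and the median of all genes tested as a dashed line. SCR1 (−1.18) and RPR1 (−1.04) are the lowest called points of the first panel. The box C/D class, which leaves out U3, holds its only filled point, snR64 (−1.05), in the third.

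Between titles, more of these RNAs were called in the mutation strain than in the control strain, as were more of all genes. Of 72 RNAs, 4 rose and 5 fell in HP mutation relative to nHP mutation, 12.5%, against 49.3% of all genes tested. In the control strain 1 rose, 1.39%, against 1.96% of all genes. Among RNAs averaging at least 100 counts, 6 of 21 were called in the mutation strain, against 53.6% of genes in that range, and below 100 counts 3 of 51, against 19.4%. In the control strain these counts were 1 of 21, against 2.07%, and 0 of 51, against 1.17%. Libraries did not overlap for 10 RNAs higher and 21 lower in HP mutation, against 41.1% and 38.7% of all genes, and for 25 higher and 7 lower in HP control, against 19.8% and 19.0%. Of the 8 RNAs that fell in the mutation strain in either comparison between strains, snR17a rose and snR86 fell between titles in it, and SCR1, RPR1, TLC1, snR14, LSR1 and snR3 were not called. The log2 fold changes were −0.03 ± 0.14 SE for SCR1, −0.08 ± 0.12 for RPR1, −0.18 ± 0.13 for TLC1, 0.40 ± 0.28 for snR14, 0.13 ± 0.10 for LSR1 and −0.04 ± 0.22 for snR3. These comparisons share libraries with the strain comparisons.

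Of the 9 RNAs called between titles in the mutation strain, 7 were box H/ACA snoRNAs, 1 was a U3 gene and 1 was another box C/D snoRNA. snR17a rose most, with 14.8 and 14.2 CPM in HP mutation libraries, against 8.72 and 6.93 CPM in nHP mutation libraries (1.85-fold, log2 fold change 0.89 ± 0.18 SE, edgeR adjusted p = 0.0022). snR11 rose 1.49-fold, to 57.8 and 51.7 CPM in HP mutation libraries, against 40.4 and 33.3 CPM in nHP mutation libraries (0.57 ± 0.14 SE, edgeR adjusted p = 0.00484). Neither group pair overlapped. Without nHP mutation replicate 2, snR11 was not called (edgeR adjusted p = 0.0641).

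snR35, whose sequence is shown above, had 11.8 and 13.8 CPM in HP mutation libraries, against 7.85 and 9.03 CPM in nHP mutation libraries, and rose 1.51-fold (log2 fold change 0.60 ± 0.17 SE, edgeR adjusted p = 0.0147). snR36, a guide for U1187 of the small subunit rRNA, had 4.76 and 5.29 CPM in HP mutation libraries, against 3.11 and 2.85 CPM in nHP mutation libraries, and rose 1.68-fold (0.75 ± 0.25 SE, edgeR adjusted p = 0.0275). Both stood clear of the nHP mutation libraries in both replicates. The snR35 call was lost without nHP mutation replicate 1 (edgeR adjusted p = 0.0854) and HP mutation replicate 2 (0.0949). The snR36 call was lost without any 1 of the 4 libraries (edgeR adjusted p from 0.0598 to 0.129) and by DESeq2 (adjusted p = 0.111).

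Among the RNAs that fell, snR44 had 11.6 and 13.2 CPM in HP mutation libraries, against 21.3 and 27.2 CPM in nHP mutation libraries (1.96-fold, log2 fold change −0.97 ± 0.16 SE, edgeR adjusted p = 0.000585). snR49, a guide for U990 of the large subunit rRNA and sites in the small subunit, had 5.97 and 7.31 CPM, against 9.84 and 11.6 CPM in nHP mutation libraries (−0.70 ± 0.19 SE, edgeR adjusted p = 0.0106). The groups were apart for both RNAs. snR64 had 15 counts in each HP mutation library, against 21 and 29 counts in the nHP mutation libraries (−1.05 ± 0.32 SE, edgeR adjusted p = 0.0174). The snR49 call was lost without nHP mutation replicate 2 (edgeR adjusted p = 0.1) or HP mutation replicate 1 (0.104). The snR64 call was lost without nHP mutation replicate 2 (edgeR adjusted p = 0.156), HP mutation replicate 1 (0.102) and by DESeq2 (0.0756).

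The long H/ACA snoRNAs snR86 and snR30 fell as well. snR86 had 49.4 and 55.9 CPM in HP mutation libraries, against 70.5 and 78.3 CPM in nHP mutation libraries (1.41-fold, log2 fold change −0.50 ± 0.10 SE, edgeR adjusted p = 0.00208). snR30 had 24.4 and 24.04 CPM in HP mutation libraries, against 33.8 and 32.8 CPM in nHP mutation libraries (1.37-fold, −0.46 ± 0.12 SE, edgeR adjusted p = 0.00753). Neither pair of groups overlapped. Calls for snR17a, snR44, snR86 and snR30 between titles in the mutation strain held under all 15 alternatives run for each.

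In the control strain LSR1 was the called RNA between titles. It had 105 and 95.1 CPM in HP control libraries, against 61.8 and 62.9 CPM in nHP control libraries, and rose 1.60-fold (log2 fold change 0.68 ± 0.09 SE, edgeR adjusted p = 0.00174), a call that held under all 15 alternatives. RPR1, SCR1, NME1 and snR6 were higher in both HP control libraries than in both nHP control libraries without being called. Their log2 fold changes were 0.44 ± 0.11 SE (edgeR adjusted p = 0.0864), 0.49 ± 0.13 (0.111), 0.69 ± 0.26 (0.306) and 1.12 ± 0.39 (0.272). TLC1 lay on the other side, at −0.32 ± 0.13 SE (edgeR adjusted p = 0.361).

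The difference between titles itself differed between the strains for 5 of 72 RNAs, 6.94%, against 29.2% of all genes, by edgeR's interaction contrast, which takes the HP over nHP change of the control strain from that of the mutation strain. All 5 values were below 0, and 16 RNAs had an unadjusted p under 0.05. Of the RNAs averaging at least 100 counts 4 of 21 were called, against 32.1% of genes, and of the others 1 of 51, against 8.57%. They were −0.82 ± 0.26 SE for snR34 (edgeR adjusted p = 0.0364), −0.65 ± 0.14 for snR86 (0.00761), −0.58 ± 0.16 for snR30 (0.0219), −0.55 ± 0.13 for LSR1 (0.0117) and −0.51 ± 0.17 for RPR1 (0.0393). snR34, a guide for U2826 and U2880 of the large subunit rRNA, had 7.74 and 8.05 CPM in HP mutation, against 10.09 and 10.02 CPM in nHP mutation libraries, and 10.7 and 8.33 CPM in HP control, against 6.82 CPM in each nHP control library. With no composition scaling only snR86 was called, and leaving out HP mutation replicate 1 left no RNA called, with all 5 log2 values between −0.48 and −0.77. Without nHP mutation replicate 2 only LSR1 was called, and without nHP control replicate 1 only snR86. SCR1 had an interaction of −0.52 ± 0.19 SE with an edgeR adjusted p of 0.0635.

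The 8 intronic snoRNAs lie in genes for translation factors, ribosomal proteins and others. All 8 hosts (EFB1, ASC1, TEF4, RPL7A, RPL7B, RPS22B, IMD4 and NOG2) fell in HP mutation relative to nHP mutation, where 24.1% of all genes tested fell. Of the 7 intronic snoRNAs tested, 1 fell with its host, snR44 at −0.97 ± 0.16 SE beside RPS22B, a ribosomal protein gene, at −0.53 ± 0.14 SE (edgeR adjusted p = 0.00963). snR191 had −0.78 ± 0.32 SE beside NOG2, a ribosome assembly GTPase, at −0.60 ± 0.12 SE. snR18 had −0.49 ± 0.24 SE beside the elongation factor gene EFB1 at −0.82 ± 0.14 SE. snR54 had −0.52 ± 0.28 SE beside IMD4, of guanine nucleotide synthesis, at −0.77 ± 0.13 SE.

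For the remaining 3 the snoRNA lay near 0 or above it. snR38 had −0.02 ± 0.39 SE beside the elongation factor gene TEF4 at −0.87 ± 0.11 SE. snR39 had 0.11 ± 0.43 SE beside RPL7A at −0.46 ± 0.11 SE, and 51 bases of snR39 are 86.3% identical to snR59, which lies in RPL7B and was not tested. snR24 had 0.67 ± 0.34 SE, with 1.87 and 2.33 CPM in HP mutation libraries, against 1.25 and 1.36 CPM in nHP mutation libraries, beside ASC1, a ribosome-bound protein gene, at −0.61 ± 0.16 SE. The 7 rank with their hosts at −0.14 (Spearman) in this comparison, which describes 7 pairs from the same libraries. The 7 hosts stood far higher, at a mean of 168 to 1716 RPKM against 9.99 to 86.7 RPKM for these snoRNAs.

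**Figure D4:**
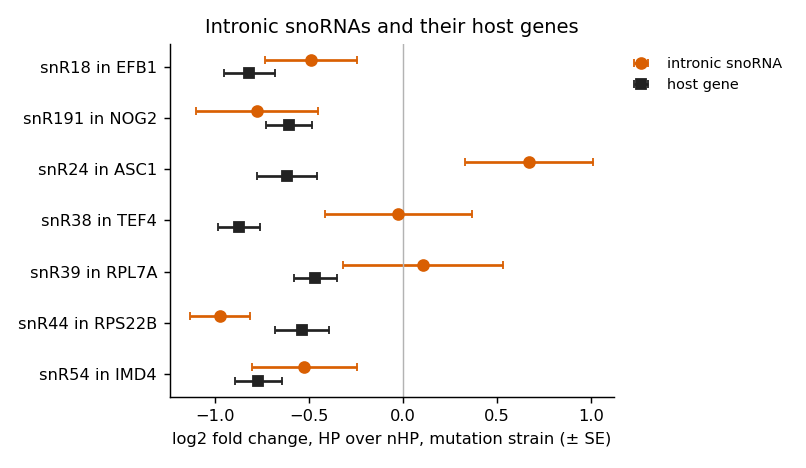
log2 fold changes in the mutation strain, HP over nHP, of 7 intronic snoRNAs (circles) and of their host genes (squares), with bars for ± 1 SE. All hosts lie left of 0, from −0.46 to −0.87, while the snoRNAs range from −0.97 for snR44 to 0.67 for snR24.

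Neighbouring genes were set beside these RNAs, because the strand setting of the counting was not given in the sources used here. Where the next gene downstream lies on the opposite strand, 34 RNAs could be paired with it. Across these pairs, the log2 fold changes of RNA and neighbour had a Spearman rank correlation of 0.54 between strains under HP, 0.52 between titles in the mutation strain and 0.44 for the interaction. It was 0.13 between strains under nHP and −0.06 between titles in the control strain. For the other 3 neighbour positions all 15 coefficients lay between −0.35 and 0.34. RNAs averaging at least 50 counts gave 0.52 and 0.54 over 21 pairs in the first 2 comparisons, and the rest gave 0.55 and 0.52 over 13 pairs. These are descriptions across genes read in the same libraries, and reads that run from a neighbour into the RNA were not tested.

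Between titles in the mutation strain, 9 of the 17 tested neighbours of called RNAs were called, against 49.3% of all genes, 5 of them the same way as the RNA and 4 the other way. Between strains 3 of 13 were called under HP, against 28.7% of all genes, 1 of them the same way. Under nHP 2 of 9 were called, against 21.3% of all genes, 1 of them the same way. For the interaction 1 of 10 was called, the other way from the RNA, against 29.2% of all genes. snR11 and its downstream neighbour on the opposite strand, CMC4, a mitochondrial protein gene, both rose, CMC4 by 0.41 ± 0.13 SE under HP between strains (edgeR adjusted p = 0.0342) and by 0.92 ± 0.14 SE between titles in the mutation strain (0.000322). Its upstream neighbour on the same strand, the ribosomal protein gene RPL36A, had −0.16 ± 0.10 SE and −0.32 ± 0.10 SE in these comparisons. snR49 and its downstream neighbour BRE5, a cofactor gene of a ubiquitin protease, both fell between titles in the mutation strain, BRE5 by 0.61 on the log2 scale. The other neighbour of snR49, LYS9, fell by 0.40. snR36 lies downstream of GSP2, a gene of the nuclear transport GTPase, on the same strand, which rose by 0.49 ± 0.10 SE (edgeR adjusted p = 0.00263). snR35 lies beside DSC3 on the opposite strand, which rose by 0.59 ± 0.14 SE (edgeR adjusted p = 0.00524). Besides RPL36A, those called the other way were MDM30 (0.55) beside snR44, FAA4 (0.32) beside snR86 and RPL33B (−0.56) beside snR17a.

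Beside the RNAs that fell most in the mutation strain under HP, no neighbour listed here was called lower under HP. The neighbours listed were chosen after their values were seen. SWC5 and COQ21 beside LSR1 had −0.09 ± 0.10 and 0.03 ± 0.14 SE, and SEC3 and TMA20 beside snR14 had −0.02 ± 0.09 and −0.22 ± 0.11 SE, none of them called under HP. Under nHP, TMA20 rose by 0.34 ± 0.11 SE (edgeR adjusted p = 0.0417) while snR14 fell. PXP1, upstream of RPR1 on the same strand, rose by 0.72 ± 0.09 SE under HP (edgeR adjusted p = 0.000326) while RPR1 fell, although under nHP PXP1 fell with it by 0.45 on the log2 scale (edgeR adjusted p = 0.00791). TIM9, downstream of RPR1 on the opposite strand, had −0.11 ± 0.18 SE under HP and was not called. YER137C, upstream of SCR1 on the opposite strand, rose by 0.55 ± 0.19 SE under HP (edgeR adjusted p = 0.049).

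**Figure D5:**
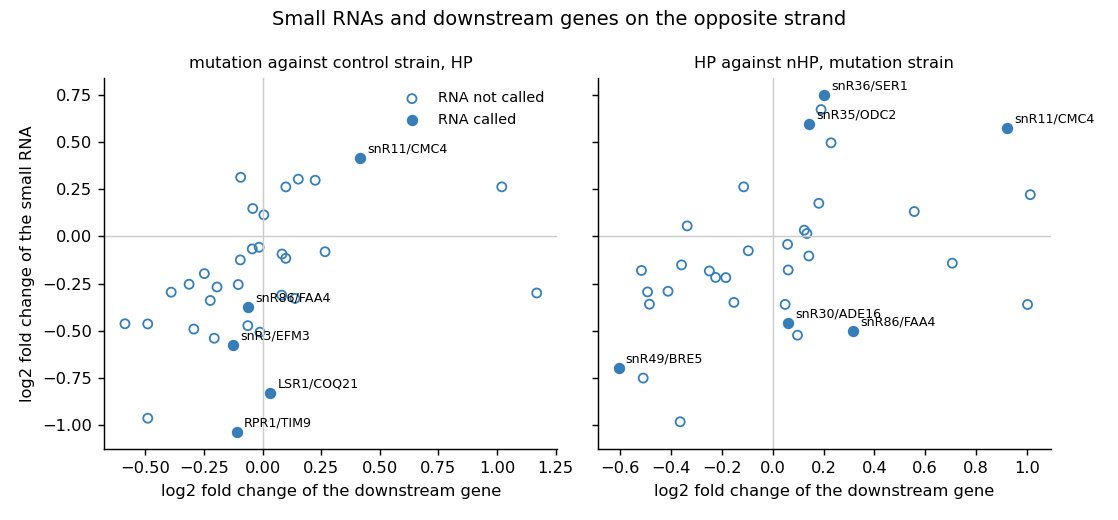
log2 fold change of 34 small RNAs against that of the next gene downstream where it lies on the opposite strand, 1 point per pair, for mutation against control strain under HP (left) and HP against nHP in the mutation strain (right), with called RNAs filled and named beside their neighbour. The Spearman rank correlations are 0.54 and 0.52, and snR11 and CMC4 lie above and right of 0 in both panels.

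The mRNAs of proteins that bind or make these RNAs were read in the same libraries. In HP mutation relative to nHP mutation, 4 of 5 box C/D core protein genes fell, among them NOP56 by 1.07 ± 0.12 SE and the methyltransferase gene NOP1 by 1.05 ± 0.11 SE on the log2 scale (edgeR adjusted p = 7.5e-05 and 4.17e-05). All 4 box H/ACA core protein genes fell, among them GAR1 by 1.15 ± 0.10 SE and NHP2 by 0.93 ± 0.13 SE (edgeR adjusted p = 1.56e-05 and 0.000239). Among all genes, 24.1% fell in this comparison. Of the snoRNAs these proteins carry, 1 of 34 box C/D and 4 of 28 box H/ACA snoRNAs fell and 3 H/ACA snoRNAs rose. Of the 2 U3 genes, which are box C/D snoRNAs counted apart, snR17a rose. In the strain comparison under nHP, 4 of 5 and 2 of 4 core genes rose, against 11.4% of all genes, with NOP56 at 0.73 ± 0.12 SE and GAR1 at 0.66 ± 0.10 SE. Under HP 3 and 1 of them fell, and between titles in the control strain 0 of both lists was called by edgeR.

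Of 13 snoRNP assembly factor genes, 8 fell between titles in the mutation strain, NOP1 among them again and SRP40, a nucleolar phosphoprotein gene, by 0.72 ± 0.10 SE. Of 33 genes of termination and 3′ processing, 19 fell and 2 rose there, with the RNA helicase gene MTR4 lower by 1.24 ± 0.11 SE, the termination factor gene NRD1 lower by 1.04 ± 0.10 SE and SYC1 higher by 0.92 ± 0.12 SE. Under nHP between strains, 14 of these 33 rose and 1 fell, against 11.4% and 9.91% of all genes. NRD1 was higher there by 0.87 ± 0.10 SE (edgeR adjusted p = 0.000191). Genes for Sm and Lsm proteins, not all of which lie in rings that hold snRNAs, gave 0 calls of 14 under nHP. Under HP they gave 1, LSM1, lower by 0.36 on the log2 scale. Between titles in the mutation strain 4 of these 14 fell and 0 rose, where 24.1% of all genes fell. Of 27 snRNP-specific protein genes, 5 rose and 4 fell under HP, near the shares of all genes that rose (14.7%) and fell (14.0%). Of genes for the U2 particle, whose RNA LSR1 was lower, CUS1 was higher by 0.68 ± 0.09 SE and HSH155 lower by 0.39 ± 0.09 SE. PRP3 was higher by 0.47 ± 0.09 SE and PRP39 lower by 0.68 ± 0.12 SE.

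The shares of all genes that rose and fell were 14.7% and 14.0% under HP between strains and 11.4% and 9.91% under nHP, and counts of 1 of 11 or 2 of 21 lie at or under them. Beside SCR1, 2 of 6 signal recognition particle protein genes fell under HP between strains (SRP72 by 0.38 and SRP21 by 0.35 on the log2 scale), and 2 rose under nHP (SRP68 by 0.43 ± 0.11 SE and SRP54 by 0.34 ± 0.10 SE), where SCR1 fell. All 6 fell between titles in the mutation strain, where SCR1 was not called. Beside RPR1, 1 of 11 RNase P and MRP protein genes fell under HP (RPP1, by 0.37) and 1 rose (POP4, 0.39 ± 0.10 SE). Under nHP 1 fell (POP7, by 0.39). Beside TLC1, the telomerase subunit gene EST3 fell by 1.001 ± 0.128 SE under nHP and by 0.45 ± 0.12 SE under HP (edgeR adjusted p = 0.000363 and 0.0161), while EST1 and EST2 were not called in either. Of 21 genes of RNA polymerase III and its factors, 7 rose and 0 fell under nHP, with RET1 at 0.50 ± 0.10 SE, and 2 rose and 4 fell under HP, with TFC6 at 0.46 ± 0.10 SE and RPC25 at −0.56 ± 0.18 SE. Between titles in the mutation strain 2 of the 21 rose and 11 fell, against 25.2% and 24.1% of all genes. There TFC6 had 0.50 ± 0.10 SE and RPC53 −0.93 ± 0.10 SE.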

How the data were processed

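Gene counts were deposited by the authors as whole numbers for 7126 genes and 8 libraries, from NEBNext Ultra libraries of total RNA, per the labels' protocols. Reads were aligned with TopHat2 2.0.9 per the submitters' processing notes. The RPKM values were deposited by the authors, and equal counts divided by 1 length per gene and by the column total. The counter, strand setting, genome build and annotation were not given in the sources used here. Matched to RefSeq R64, 81 of 83 RNAs and 5573 of 5888 genes had the same length within 0.5 base, and for snR17a and snR17b the table used the spliced length.

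Library totals of 8296523 to 11202362 counts set the precision, and intervals and floors (3 counts) cover counting error only. Counts were tested with edgeR 4.0.16 (R 4.3.3) by the quasi-likelihood F test, with TMM scaling, filterByExpr, 1 model of 4 group means with 4 residual degrees of freedom, and Benjamini-Hochberg adjustment over 6174 genes at 0.05. Standard errors are the log2 fold change over the root of F. The fit was tested on simulated data. Alternatives were RLE factors, no composition scaling, no filter or a filter of 10 CPM, the replicate number as a block, the libraries of the groups compared alone, each library left out, and DESeq2 1.42.0. Similar copies were searched with BLAST 2.17.0.

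The RNAs named were the snRNAs, U3, snR30, snR128, snR10, NME1, RPR1, SCR1 and TLC1, up to 6 called RNAs in each direction per comparison, the 6 highest and 3 lowest by mean RPKM, intronic RNAs with their hosts, and up to 2 called genes per protein list, direction and comparison. The neighbouring genes named were chosen after their values were seen. The RNAs, lists and tests were chosen with earlier results of these data known.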

Additional observations from a re-analysis of the deposited data

Results flagged for a closer look

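For 5 RNAs the change between titles differed between the strains by edgeR's interaction contrast, with the change in the control strain taken from that in the mutation strain. Values are log2 with the edgeR adjusted p, over 2 libraries in each of 4 groups.

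snR86 had −0.65 (edgeR adjusted p = 0.00761), from a change of −0.50 in the mutation strain and 0.15 in the control strain. Its call was lost without nHP mutation replicate 2 (0.0560) and without HP mutation replicate 1 (0.0566). LSR1 had −0.55 (edgeR adjusted p = 0.0117), from 0.13 in the mutation strain and 0.68 in the control strain. Its call was lost without nHP mutation replicate 1 (0.0526), nHP control replicate 1 (0.0537) and HP mutation replicate 1 (0.0560), and with no composition scaling (0.0632).

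snR30 had −0.58 (edgeR adjusted p = 0.0219), from −0.46 in the mutation strain and 0.12 in the control strain. Its call was lost without any 1 nHP library or HP mutation library (edgeR adjusted p from 0.0609 to 0.0888), with no composition scaling (0.0832) and by DESeq2 (0.0555). snR34 had −0.82 (edgeR adjusted p = 0.0364), from −0.35 in the mutation strain and 0.47 in the control strain. Its call was kept without HP control replicate 2 and lost without any 1 of the other 7 libraries (edgeR adjusted p from 0.0776 to 0.112), with no composition scaling (0.0828) and by DESeq2 (0.102).

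RPR1 had −0.51 (edgeR adjusted p = 0.0393), from −0.08 in the mutation strain and 0.44 in the control strain. Its call was lost without nHP mutation replicate 2 (0.193), nHP control replicate 1 (0.122) or 2 (0.110), HP mutation replicate 1 (0.125) or 2 (0.0943) and HP control replicate 1 (0.0534), with no composition scaling (0.125), with a filter of 10 CPM (0.0558) and by DESeq2 (0.102).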

How the results depend on the processing

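Over 27 called pairs of an RNA and a comparison, 394 alternatives gave a value: 312 kept the call, 82 lost it and 0 reversed the direction, and 8 pairs lost no call. The RNAs called numbered 5 between strains under nHP, 7 under HP, 9 between titles in the mutation strain, 1 in the control strain and 5 for the interaction. With the replicate number as a block they were 8, 11, 10, 2 and 8. Of all genes too, more were called with the block in every comparison, such as 2350 against 1769 between strains under HP. Deviations of same-numbered libraries correlated at r from −0.03 to 0.20 over 6 pairs of groups. No label says what the replicate numbers share, so they were not taken as pairs. Among the small RNAs, the interaction gave 1 call with no composition scaling, 3 with a filter of 10 CPM and 2 by DESeq2. DESeq2 gave 4 under HP, and the nHP libraries alone gave 9 between strains. With 1 library left out, the calls ran from 1 (without nHP control replicate 1) to 9 (without either HP control library) under nHP, and from 3 (without HP mutation replicate 1) to 8 (without HP control replicate 2) under HP. Between titles they ran from 5 (without nHP mutation replicate 2) to 11 in the mutation strain and from 1 to 2 in the control strain, and for the interaction from 0 (without HP mutation replicate 1) to 7. The cause was not tested. With no composition scaling the median of all genes shifted to −0.15 between strains under nHP, 0.14 between titles in the mutation strain and 0.16 for the interaction. The genes called then were 419 higher and 1236 lower, against 706 and 612 with it, 2106 and 1051, against 1557 and 1486, and 1321 and 576, against 904 and 899. Depth limits the 51 RNAs tested that average under 100 counts and the 11 not tested.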
